A study of Mus musculus with 20 samples.

Results

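The hippocampal step from precursor to young neuron was described from 1 RNA library of young CA pyramidal neurons (yCA) set against 1 library of hippocampal precursors (HP). These are 2 of the 6 RNA libraries among the 20 samples of the series, and they were chosen by their titles. All 6 are labelled as male wild-type C57BL/6 brain, taken by microdissection of frozen sections, so each library is a piece of tissue and not a sorted cell population. The other 4 are striatal precursors (SP), young medial spiny neurons (yMSN) and dorsal medial spiny neurons (dMSN 1 and dMSN 2), the neurons otherwise called medium spiny neurons. The labels give no age and no number of animals for a library. With 1 library on each side there is no replicate check and no p-value, and every ratio below compares these libraries.

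Pyramidal neurons of the CA fields arise from radial glia that line the ventricle of the medial pallium, next to the cortical hem, a signalling centre that releases Wnt and bone morphogenetic proteins. Their daughters leave the cell cycle, switch on neurogenic transcription factors, migrate outwards, and only later build synapses. Neurod2 and Neurod6 are transcription factors of these young excitatory neurons, Dcx is a microtubule protein of migrating neurons, and Top2a untangles DNA in dividing cells.

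Genes held 31282185 counts in HP and 35418531 in yCA. Levels are given as CPM (counts scaled to library size) with a correction for composition, and a gene is described where it reached 5 CPM in the higher of the HP and yCA libraries, which 12472 of 34620 symbols did. A gene is said to have risen or fallen where the 2 libraries differed at least 2-fold. A gene far under 5 CPM in one library is described only if it was much higher in the other. In lists low in HP the share of described genes that rose is thus partly fixed by this rule. Of the described genes 2595 (20.8%) rose, 1763 (14.1%) fell, and 4358 (34.9%) did one or the other. These shares are the background to the counts given for each list below. Each log2 ratio is followed, where given, by a 95% interval that covers counting error only. Between dMSN 1 and dMSN 2, the one replicated group and a more deeply sequenced one, 110 of 12010 genes (0.916%) differed 2-fold. In HP the genes Ddx3y, Eif2s3y and Kdm5d of the Y chromosome had 672 counts in all, against 0 in yCA, while Xist, the RNA of the inactive X, was at 857 CPM in HP and 762 CPM in yCA. The yCA library thus goes against its male label, the HP library holds both kinds of transcript, and no value can be given without either library.

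The 4 markers fit the HP and yCA labels in direction. Neurod6 was at 0.488 CPM in HP, 396 in yCA, 0.730 in SP, 169 in yMSN, and 50.4 and 93.9 in the dMSN libraries. Neurod2 was at 0.459 CPM in HP, 235 in yCA, 0.755 in SP, 109 in yMSN, and 78.9 and 107 in the dMSN libraries. Both were lowest in the precursor libraries and highest in yCA, with log2 ratios of yCA over HP of 9.51 (interval 8.99 to 10.45) and 8.84 (8.30 to 9.81). Their log2 ratios of yMSN over SP were 7.76 and 7.09, so the rise was not particular to the hippocampal libraries. Dcx was at 155 CPM in HP, 2102 in yCA, 381 in SP, 1168 in yMSN, and 11.5 and 12.8 in the dMSN libraries, a log2 ratio of 3.76 (3.72 to 3.80). Top2a ran the other way, at 1040.4 CPM in HP, 239 in yCA, 1063 in SP, 272 in yMSN, and 2.60 and 2.58 in the dMSN libraries, a log2 ratio of -2.12 (-2.15 to -2.09). Its level in yCA was lower than in either precursor library and well above that in the dMSN libraries. In tissue libraries such as these, fewer cells of a type and less RNA per cell cannot be told apart.

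**Figure D1:**
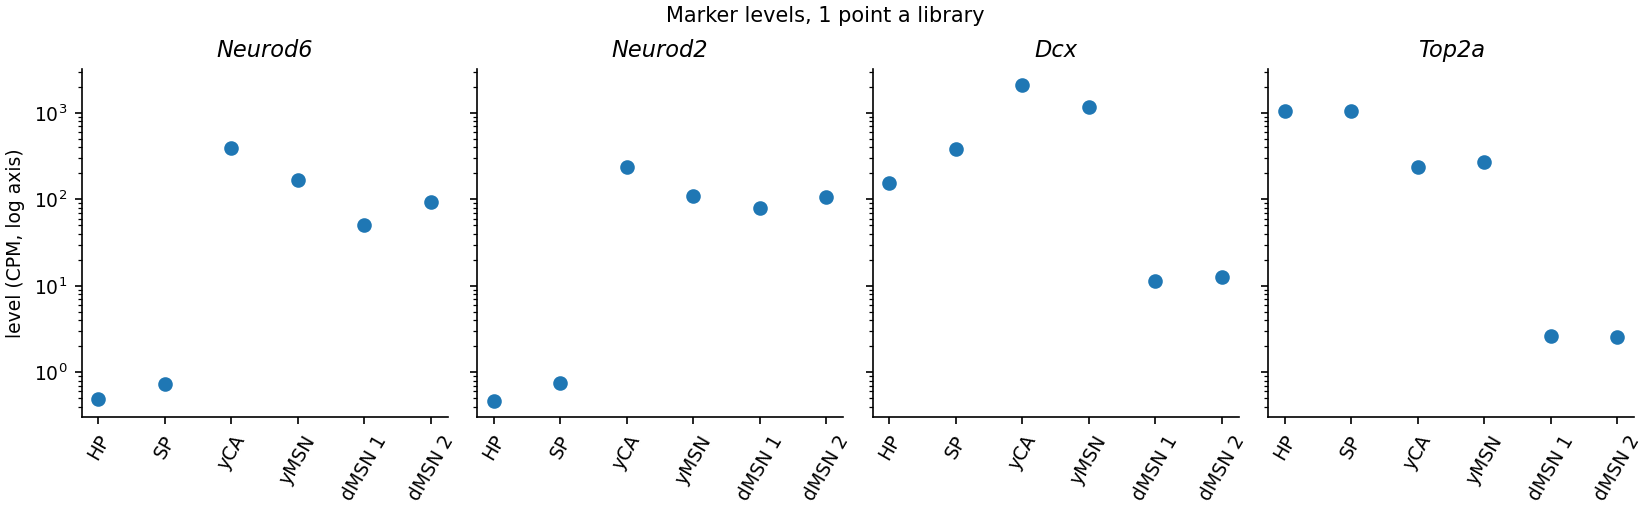
Levels of Neurod6, Neurod2, Dcx and Top2a in each of the 6 libraries, in CPM on a log axis, 1 point a library. Neurod6 and Neurod2 stand at 0.488 and 0.459 CPM in HP against 396 and 235 CPM in yCA, while Top2a stands lower in yCA than in HP.

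The rises were larger than the falls. Across the described genes the log2 ratio had a median of -0.07, quartiles of -0.62 and 0.76, and 5th and 95th percentiles of -1.78 and 3.49. At 8-fold or more 834 genes rose and 123 fell, and at 16-fold or more 473 rose and 59 fell. The counting interval lay wholly past 2-fold for 2365 of the rises and 1443 of the falls. Of the described genes 19 had 0 counts in HP and 2 had 0 counts in yCA.

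Since the dissected tissue held transcripts of other organs, genes were divided by whether brain libraries other than yCA carried them. A gene passed where it reached 10 CPM in HP or in both dMSN libraries, which 11315 of the described genes did, and among those 2102 (18.6%) rose and 1588 (14.0%) fell. Of the other 1157 genes 493 (42.6%) rose and 175 (15.1%) fell. These were under 10 CPM in HP and reached 5 CPM in HP or yCA, which favours rises by construction. The shares of the 2 groups are therefore not like for like. Passing through HP alone favours falls by construction, and passing through dMSN alone favours rises, so the 11315 genes were split once more. Genes at 10 CPM in both HP and dMSN numbered 8137 and moved least, with a median log2 ratio of -0.13, 1036 rises and 743 falls. Those that passed through HP alone numbered 1710, of which 60 rose and 824 fell, with a median of -0.94. Those that passed through dMSN alone numbered 1468, of which 1006 rose and 21 fell, with a median of 1.98. Of the 834 rises of 8-fold or more 252 did not pass, and of the 473 of 16-fold or more 178 did not. Among the falls of these sizes 25 of 123 and 12 of 59 did not pass.

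**Figure D2:**
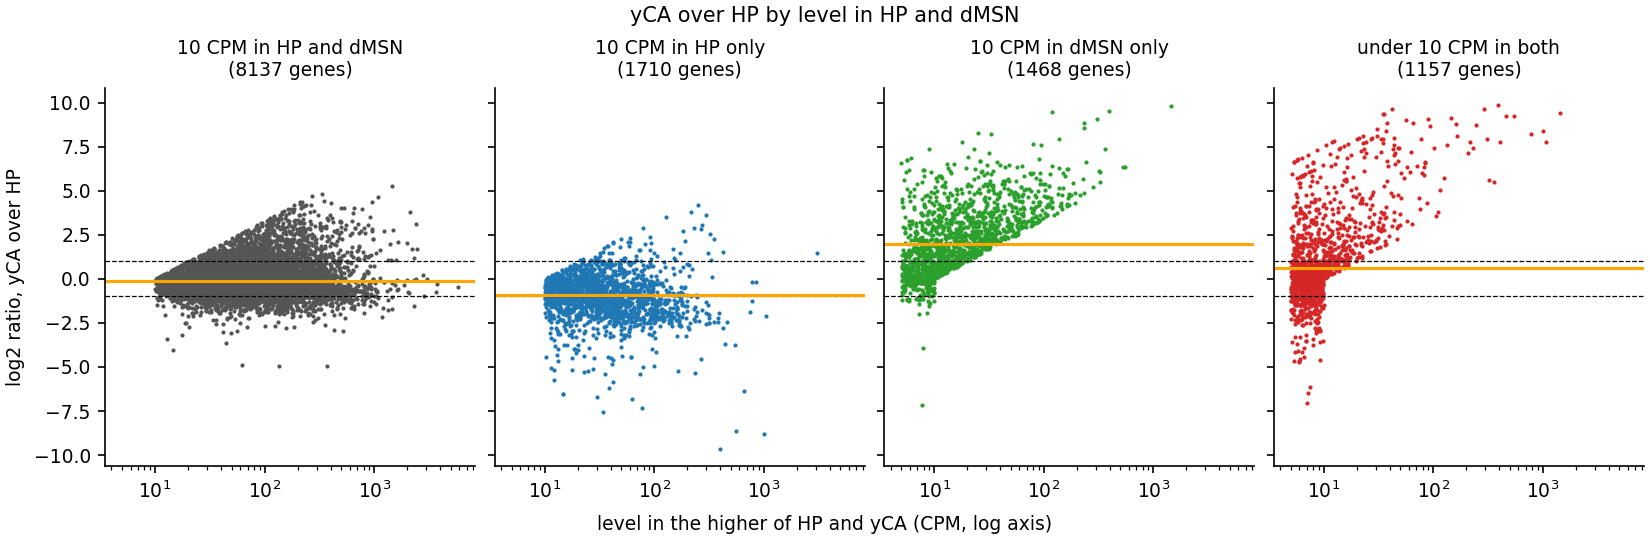
Log2 ratio of yCA over HP for each described gene against its level in the higher of the HP and yCA libraries, in 1 panel for each of the 4 classes by level in HP and dMSN; the orange line is the class median and the dashed lines mark 2-fold. Class medians are -0.13 for genes in HP and dMSN, -0.94 for HP only, 1.98 for dMSN only and 0.63 for neither.

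Cell division genes fell together. All 20 mitosis genes fell, with log2 ratios from -2.69 to -1.63 and a median of -2.18, and all 22 DNA replication genes fell, from -3.04 to -1.57 with a median of -2.24, where 14.1% of all described genes fell. Bub1, a kinase of the spindle checkpoint, was at 170.4 CPM in HP, 26.3 in yCA, 161 in SP, 31.1 in yMSN, and 0.175 and 0.104 in the dMSN libraries, a log2 ratio of -2.69 (-2.79 to -2.60). The mitotic kinase gene Plk1 was at 136 CPM in HP, 24.3 in yCA, 120.3 in SP, 32.3 in yMSN, and 1.84 and 1.75 in the dMSN libraries, a log2 ratio of -2.48. Both were high in HP and SP, several-fold lower in yCA and yMSN, and lowest in the dMSN libraries. Kif20a, a kinesin of the dividing cell's midzone, fell from 168 to 27.2 CPM, the checkpoint kinase gene Bub1b from 257 to 47.9 CPM, and Birc5, which encodes the chromosomal passenger survivin, from 102 to 18.9 CPM. In the replication list Mcm10, which helps load polymerase at origins, was at 100.4 CPM in HP, 12.1 in yCA, 87.4 in SP, 15.9 in yMSN, and 0.906 and 0.595 in the dMSN libraries, a log2 ratio of -3.04 (-3.19 to -2.91). Cdc6, which loads the helicase, fell from 65.3 to 10.3 CPM, and the helicase subunit Mcm5 from 358 to 57.8 CPM. The range within each list was narrow beside the 5th to 95th percentile range of all genes.

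Promoters of the mitosis genes are shown because the whole list moved as a block, and many genes of this phase carry a CCAAT box and a cell cycle homology region (TTTGAA). RefSeq promoter windows of 300 bases, from 250 bases before to 50 after a gene's start, were found for 16 of the 20 mitosis genes in build GRCm38.p6. CCAAT, on either strand, was in 14 of these 16 (87.5%), TTTGAA, on either strand, in 11 (68.8%), and both in 11 (68.8%). Among all 32851 promoters of the table the shares were 37.4%, 17.9% and 6.95%. These promoters belong to 27025 genes, some with more than 1 window and chosen without regard to level, whereas each list gene has 1 window. For DNA replication 17 of 22 genes had a window, with CCAAT in 11 (64.7%), TTTGAA in 3 (17.6%) and both in 2 (11.8%). Letters of the E2F type (TTTCGCGC, TTTCCCGC, TTTGGCGC or TTTGCCGC on either strand), added after the other motifs had been counted, were in 7 replication promoters (41.2%), 1 mitosis promoter (6.25%) and 2.26% of all promoters. A CCAAT and a TTTGAA match can overlap by at most 1 base, and a match is a description of the sequence and not a bound site. The windows of Plk1 (chr7:122159185-122159484, plus strand), Bub1b (chr2:118597961-118598260, plus strand) and Top2a (chr11:99024140-99024439, minus strand) follow 5′ to 3′ on the gene's strand, with CCAAT (or ATTGG) and TTTGAA (or TTCAAA) in capitals.
Plk1: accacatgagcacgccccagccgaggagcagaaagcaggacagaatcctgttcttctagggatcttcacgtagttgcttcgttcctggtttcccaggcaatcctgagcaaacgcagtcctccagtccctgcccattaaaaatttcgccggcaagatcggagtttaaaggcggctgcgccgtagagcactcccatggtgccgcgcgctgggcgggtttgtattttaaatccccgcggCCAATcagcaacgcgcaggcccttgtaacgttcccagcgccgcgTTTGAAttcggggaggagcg
Bub1b: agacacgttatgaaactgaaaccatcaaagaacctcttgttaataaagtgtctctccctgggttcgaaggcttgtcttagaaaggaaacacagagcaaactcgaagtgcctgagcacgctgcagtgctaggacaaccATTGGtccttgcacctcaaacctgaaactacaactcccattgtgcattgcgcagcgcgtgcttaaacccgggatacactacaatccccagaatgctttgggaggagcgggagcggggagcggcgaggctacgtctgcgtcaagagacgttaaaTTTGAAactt
Top2a: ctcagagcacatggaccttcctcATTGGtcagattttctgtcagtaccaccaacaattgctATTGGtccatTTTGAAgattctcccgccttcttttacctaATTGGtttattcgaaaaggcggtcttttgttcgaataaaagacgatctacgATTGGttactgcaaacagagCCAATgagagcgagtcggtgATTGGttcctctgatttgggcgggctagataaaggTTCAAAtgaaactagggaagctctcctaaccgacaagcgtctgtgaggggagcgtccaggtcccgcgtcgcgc

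Early embryonic regulators had the lowest median of the lists of precursor genes. Of 12 such genes 11 were described and 10 fell, none rose, and the list median was -3.43. Lin28a, an RNA-binding protein that blocks let-7 maturation, was at 33.8 CPM in HP, 0.129 in yCA, 48.9 in SP, 0.506 in yMSN, and 0.0416 and 0.0345 in the dMSN libraries, a log2 ratio of -7.53 (-9.66 to -6.81). Dusp9, a MAP kinase phosphatase, fell from 62.4 to 0.488 CPM, and Sall4, a zinc finger factor of pluripotent cells, fell from 39.1 to 0.488 CPM. Trim71, a ubiquitin ligase and let-7 target, fell from 14.6 to 0.103 CPM. The cell surface gene Igdcc3 fell from 269 to 11.3 CPM, and Igf2bp1, which binds mRNAs of growth genes, fell from 445 to 33.6 CPM. In SP and yMSN, 2 separate libraries, the same list had a median log2 ratio of -3.66.

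Radial glial genes were uneven. Of 17 members 11 fell, 2 rose and 4 stayed within 2-fold, and the median was -1.24. Hmga2, a chromatin protein of young stem cells, was at 667 CPM in HP, 7.94 in yCA, 378 in SP, 24.3 in yMSN, and 0.432 and 0.242 in the dMSN libraries, the largest fall of the list at -6.38 (-6.56 to -6.23). Gli3, a transcription factor of hedgehog signalling, fell from 235 to 44.8 CPM, Prom1, a membrane protein of stem cells, fell from 142 to 31.05 CPM, and the Notch target Hes5 fell from 32.4 to 8.76 CPM. The glutamate transporter gene Slc1a3 rose from 39.2 to 160.4 CPM, with 38.2 CPM in SP and 145 CPM in yMSN. It is shared by radial glia and astrocytes. The other rise was Fabp7, a fatty acid binding protein of radial glia, from 100.1 to 325 CPM, chosen after its value was seen.

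Among intermediate progenitor genes and Notch ligands 3 (21.4%) rose, 4 (28.6%) fell and 7 stayed within 2-fold. The share of rises was near the 20.8% of all described genes, of which 14.1% fell. Eomes, the transcription factor of pallial intermediate progenitors, was at 28.8 CPM in HP, 91.2 in yCA, 17.04 in SP, 53.7 in yMSN, and 3.38 and 1.92 in the dMSN libraries, and was highest in yCA. Neurog1, a proneural factor of an earlier state, was at 17.8 CPM in HP, 0.745 in yCA, 24.5 in SP, 7.73 in yMSN, and 0.0748 and 0.328 in the dMSN libraries, a log2 ratio of -4.48 (-5.17 to -4.04). Insm1, which promotes basal progenitors, rose from 30.7 to 77.7 CPM. The Notch ligand genes Dll1 and Dll3 fell, from 70.5 to 29.5 CPM and from 20.99 to 8.07 CPM.

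Cortical hem and Wnt genes fell in 13 of 18 cases, with 1 rise and a median log2 ratio of -1.74. Msx1, a target of bone morphogenetic protein signals, was at 136 CPM in HP, 4.29 in yCA, 87.03 in SP, 12.7 in yMSN, and 12.5 and 10.9 in the dMSN libraries, and the Wnt ligand gene Wnt8b at 60.9 CPM in HP, 2.80 in yCA, 20.4 in SP, 0.829 in yMSN, and 0.665 and 0.431 in the dMSN libraries. Both were lower in yCA and yMSN than in either precursor library, with yCA over HP at -4.97 and -4.42. The Wnt potentiator genes Rspo1 and Rspo2 fell from 44.3 to 3.47 CPM and from 49.3 to 8.40 CPM, the hem ligand gene Wnt3a from 6.86 to 1.18 CPM, and the signal gene Bmp4 from 19.4 to 3.08 CPM. Of the Cajal-Retzius list, the early layer of pioneer neurons that borders the hippocampus, 2 of 12 rose, 4 fell and 6 stayed within 2-fold. Over all described genes 20.8% rose and 14.1% fell. Reln, the secreted guide of migrating neurons, was at 18.4 CPM in HP, 260.3 in yCA, 19.8 in SP, 244 in yMSN, and 67.8 and 80.9 in the dMSN libraries, a log2 ratio of 3.82 (3.70 to 3.94). Calb2, a calcium buffer of these cells and of interneurons, rose from 4.08 to 32.8 CPM, while the transcription factor genes Lhx5, Ebf2 and Ebf3 fell, Lhx5 from 24.7 to 5.58 CPM.

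Transcription factors of pallial projection neurons rose in 20 of 22 cases with no fall, where 20.8% of all described genes rose, and the list median was 2.93. All 22 were higher in yCA than in yMSN, and for 1 of the 20 rises alone was the dMSN mean above yCA. Nfix, a nuclear factor I protein of late progenitors and neurons, was at 6.55 CPM in HP, 532 in yCA, 3.98 in SP, 192 in yMSN, and 116 and 140.3 in the dMSN libraries, a log2 ratio of 6.33 (6.16 to 6.54). Bhlhe22, a basic helix-loop-helix factor of cortical area identity, was at 4.77 CPM in HP, 134 in yCA, 13.3 in SP, 35.7 in yMSN, and 19.2 and 32.3 in the dMSN libraries. Mef2c, an activity-dependent factor, rose from 16.05 to 346 CPM, and Nfib, a relative of Nfix, from 40.3 to 649 CPM. Striatum is another region, so in the dMSN libraries stage and region cannot be told apart.

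Markers of the hippocampal fields were mixed. Of 18 genes 15 were described, 8 rose, 2 fell and 5 stayed within 2-fold, with a median of 1.13. The mineralocorticoid receptor gene Nr3c2 rose from 0.545 to 11.1 CPM, with 5.55 CPM in yMSN. Mpped1, a metallophosphoesterase gene marking the CA1 field, was at 37.95 CPM in HP, 411 in yCA, 32.4 in SP, 182 in yMSN, and 98.9 and 133 in the dMSN libraries, highest in yCA. Calb1, a calcium buffer of CA1 and dentate neurons, rose from 2.21 to 21.3 CPM, and Fibcd1, a receptor gene of the CA1 field, from 1.35 to 9.28 CPM. Pou3f1, a POU factor, rose from 12.6 to 39.7 CPM. For 9 of the 18 the level was higher in yCA than in yMSN, and for 13 the dMSN mean was above yCA.

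Genes of the young neuron's cytoskeleton and migration rose in 22 of 25 cases, none fell, and the median was 2.68. Mapt, which encodes the microtubule protein tau, was at 38.3 CPM in HP, 1462 in yCA, 76.1 in SP, 897 in yMSN, and 251 and 242 in the dMSN libraries, a log2 ratio of 5.25 (5.18 to 5.33). The Cdk5 activator gene Cdk5r1 rose from 30.7 to 494 CPM, Dclk1, a relative of Dcx, from 81.4 to 711 CPM, and Stmn4, a tubulin-binding protein, from 25.8 to 230.5 CPM. All 25 were higher in yCA than in yMSN. Of the 22 that rose, the dMSN mean was above yCA for 6. Among axon guidance and adhesion genes 19 of 29 rose, 4 fell and 6 stayed within 2-fold. The cadherin gene Cdh13 rose from 2.87 to 111 CPM, the netrin receptor gene Unc5d from 2.41 to 77.2 CPM, the adhesion gene Cntn1 from 5.45 to 79.5 CPM, the ephrin receptor gene Epha5 from 12.6 to 157 CPM, and L1cam, an adhesion molecule of growing axons, from 32.6 to 394 CPM.

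Neuronal regulators of RNA processing rose in 15 of 22 cases, and 3 fell. Rbfox1, a splicing factor of neurons and muscle, was at 2.27 CPM in HP, 149 in yCA, 9.99 in SP, 64.8 in yMSN, and 276 and 376 in the dMSN libraries, a log2 ratio of 6.01 (5.72 to 6.38). The CELF family genes Celf4, Celf5 and Celf6 rose, from 19.5 to 285 CPM, from 12.5 to 181 CPM and from 2.56 to 25.2 CPM. Rbfox3, the antigen NeuN, rose from 6.75 to 62.97 CPM. The following genes were chosen after their values were seen. Ptbp1, the repressor of neuronal exons in precursors, fell from 538 to 113 CPM, a log2 ratio of -2.25, while its neuronal relative Ptbp2 was at 312 CPM in HP and 276 CPM in yCA. Rest, which silences neuronal genes elsewhere, fell from 91.5 to 27.8 CPM. In the striatal libraries the list median was 0.08, against 1.77 in the hippocampal ones.

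Synaptic genes rose on both sides of the synapse. On the presynaptic side 23 of 24 genes rose, none fell, and the median was 3.20. Syt4, a synaptotagmin of dense-core vesicles, was at 7.58 CPM in HP, 279 in yCA, 22.8 in SP, 141 in yMSN, and 158 and 202 in the dMSN libraries, a log2 ratio of 5.19 (5.03 to 5.39). The vesicle GTPase genes Rab3c and Rab3a rose from 10.4 to 273 CPM and from 7.95 to 139.6 CPM, the synapsin gene Syn2 from 2.99 to 63.7 CPM, the calcium sensor gene Syt1 from 11.1 to 210.0 CPM, and the complexin gene Cplx1 from 3.79 to 65.1 CPM. For 21 of the 24 the dMSN mean was above yCA.

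On the postsynaptic side 23 of 29 described genes rose, none fell, and the median over the 30 was 2.86. Grm5, a metabotropic glutamate receptor, was at 0.115 CPM in HP, 118 in yCA, 0.755 in SP, 65.5 in yMSN, and 99.9 and 115 in the dMSN libraries, the largest ratio of the list at 9.45 (8.65 to 11.88) and near its dMSN levels in yCA. The AMPA receptor gene Gria2 was at 4.77 CPM in HP, 325 in yCA, 10.6 in SP, 185 in yMSN, and 216 and 317 in the dMSN libraries. Camk2b, a calcium-dependent kinase, rose from 2.38 to 245 CPM, the NMDA receptor gene Grin2b from 0.316 to 37.3 CPM, and Gria1 from 2.64 to 155 CPM.

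Among ion channels 21 of 23 described genes rose and none fell. Scn3b, a sodium channel subunit, was at 8.04 CPM in HP, 215 in yCA, 16.1 in SP, 129 in yMSN, and 104 and 102 in the dMSN libraries, a log2 ratio of 4.73. The sodium channel gene Scn2a1 rose from 3.42 to 85.6 CPM, the inward rectifier gene Kcnj3 from 0.890 to 21.4 CPM and the A-type channel gene Kcnd2 from 2.76 to 50.2 CPM. The chloride transporters, whose ratio sets the sign of GABA responses in young neurons, were chosen after their values were seen. Slc12a5, the exporter, rose from 7.46 to 75.98 CPM, while Slc12a2, the importer, was at 93.7 CPM in HP and 80.3 CPM in yCA, a log2 ratio of -0.22. All 11 GABA-A receptor subunit genes rose, from 2.51 to 5.86 on the log2 scale with a median of 3.96. Gabra5, a subunit abundant in hippocampus, was at 0.689 CPM in HP, 30.9 in yCA, 0.503 in SP, 20.9 in yMSN, and 61.2 and 69.1 in the dMSN libraries. Gabra2 rose from 0.976 to 16.7 CPM and Gabrg3 from 0.431 to 14.03 CPM, while Gabrb1 had 3 counts in HP and a log2 ratio of 5.86 (4.99 to 8.84).

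**Figure D3:**
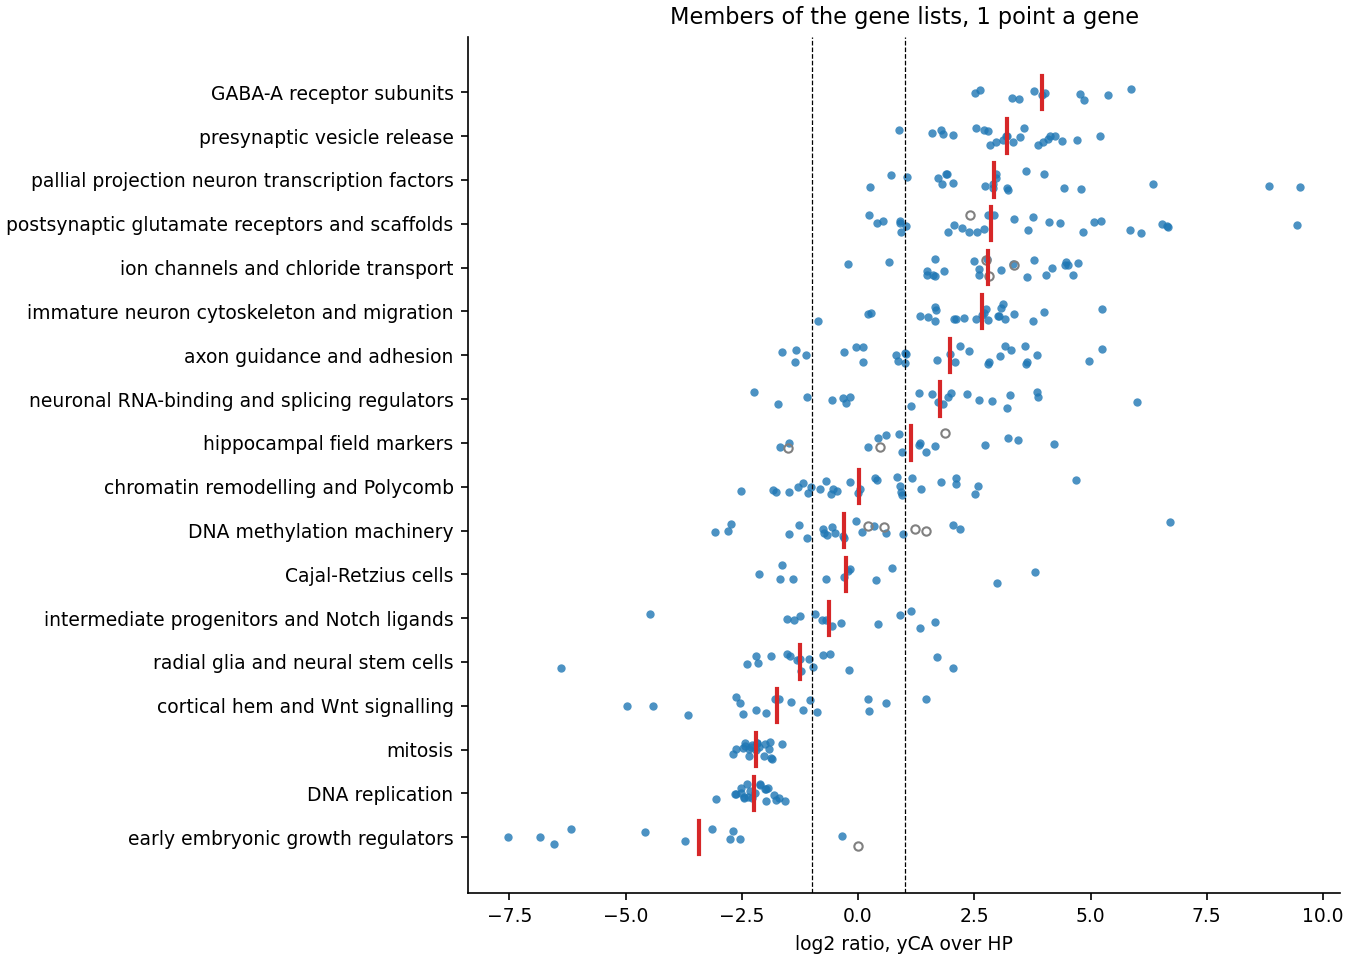
Log2 ratio of yCA over HP for the members of 18 gene lists, 1 point a gene; filled points reached 5 CPM in the higher library, open grey points did not, red bars are list medians over all members with a row, and dashed lines mark 2-fold. The replication and mitosis lists lie wholly below the lower dashed line and the GABA-A subunits wholly above the upper one.

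Genes of other neurons rose as well. Of 18 described genes of GABA synthesis and interneurons 15 rose and none fell, with a summed level of 261 CPM in HP and 1096 CPM in yCA. Gad1, which makes GABA, was at 4.85 CPM in HP, 117 in yCA, 8.48 in SP, 95.7 in yMSN, and 504 and 570.1 in the dMSN libraries. Npy, a peptide of interneurons, rose from 0.115 to 20.3 CPM, and the vesicular GABA transporter gene Slc32a1 from 3.24 to 38.7 CPM. Of 16 described striatal projection neuron genes 10 rose and none fell, and the list summed to 439 CPM in HP and 952 CPM in yCA. Ppp1r1b, a phosphatase inhibitor of dopamine signalling, was at 0.201 CPM in HP, 26.1 in yCA, 0.780 in SP, 19.1 in yMSN, and 2574 and 2472 in the dMSN libraries. Of both lists Lhx8 alone was at 0 counts in yCA. The part of these cells in the rises of the synaptic, channel and GABA-A lists was not tested.

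The DNA methylation machinery, the subject of the wider study, was mixed. Of 25 genes 21 were described, 3 rose, 6 fell and 12 stayed within 2-fold, with a median of -0.29. Over all described genes 20.8% rose and 14.1% fell. Dnmt1, the maintenance methyltransferase, was at 486 CPM in HP, 226 in yCA, 442 in SP, 208 in yMSN, and 52.8 and 54.1 in the dMSN libraries, a log2 ratio of -1.11 (-1.14 to -1.07). Its partner Uhrf1 was at 428 CPM in HP, 61.6 in yCA, 396 in SP, 83.00 in yMSN, and 2.24 and 2.06 in the dMSN libraries, a log2 ratio of -2.79 (-2.86 to -2.73). Both were higher in HP and SP than in any other library. The helicase gene Hells fell from 205 to 30.9 CPM. Of the de novo enzymes Dnmt3b was at 39.2 CPM in HP, 4.63 in yCA, 30.9 in SP, 7.46 in yMSN, and 0.416 and 0.276 in the dMSN libraries, a log2 ratio of -3.07 (-3.31 to -2.86), while Dnmt3a was at 271 CPM in HP, 192 in yCA, 237 in SP, 213 in yMSN, and 42.03 and 37.1 in the dMSN libraries and stayed within 2-fold. The oxidases Tet1, Tet2 and Tet3 stayed within 2-fold, at log2 ratios of 0.34, 0.60 and 0.095. The methyl-binding zinc finger gene Zbtb4 rose from 6.34 to 29.02 CPM. Apobec2, a deaminase relative of muscle, rose from 0.402 to 47.4 CPM, the largest ratio of the list, and did not pass on level in HP or dMSN.

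Chromatin remodelling and Polycomb genes divided evenly, with 8 rises (26.7%), 8 falls (26.7%) and 14 of 30 within 2-fold. Over all described genes 20.8% rose and 14.1% fell, so the share of rises was near that of all genes. Actl6b, a subunit of the neuronal BAF remodelling complex, was at 3.85 CPM in HP, 100.4 in yCA, 11.4 in SP, 69.3 in yMSN, and 198 and 178 in the dMSN libraries, a log2 ratio of 4.69 (4.46 to 4.97). Its precursor counterpart Actl6a, chosen after its value was seen, fell from 146 to 42.6 CPM. The same exchange held for Ss18l1, which rose from 20.9 to 124 CPM, and Ss18, likewise chosen, which fell from 119.9 to 52.5 CPM. Dpf1, another neuronal BAF subunit, rose from 26.6 to 115 CPM, and the ATPase gene Smarca2 from 44.3 to 253 CPM. The Polycomb reader gene Cbx2 fell from 210.4 to 36.5 CPM.

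The 12 largest rises and 12 largest falls among genes that passed the brain level, ranked by the interval bound nearer to no change, mixed neuronal with other transcripts. Beside Neurod6, Neurod2 and Grm5 the rises held Glra2, a glycine receptor of young neurons, at 0.344 CPM in HP, 80.3 in yCA, 0.931 in SP, 42.2 in yMSN, and 17.6 and 19.6 in the dMSN libraries. They also held Ttr, the thyroid hormone carrier of choroid plexus, at 0.517 CPM in HP, 309 in yCA, 33.7 in SP, 105 in yMSN, and 5462 and 4292 in the dMSN libraries, a log2 ratio of 9.08. Ptgds, a prostaglandin synthase of meninges and choroid plexus, had 2 counts in HP and 32.98 CPM in yCA, a log2 ratio of 8.21 (7.31 to 12.21). Acta1, skeletal muscle actin, was at 1.61 CPM in HP, 1459.9 in yCA, 2.06 in SP, 500.0 in yMSN, and 28.2 and 28.4 in the dMSN libraries, a log2 ratio of 9.78 (9.45 to 10.23). Of the same kind were Actn2, an actinin of the muscle Z disc, from 2.12 to 365 CPM, Tnni1, slow troponin I, from 0.517 to 139 CPM, the myosin light chain gene Myl4 from 0.574 to 235 CPM and cardiac troponin gene Tnnt2 from 0.431 to 94.4 CPM. Cox6a2, a respiratory chain subunit of muscle, had 1 count in HP and 985 in yCA, a log2 ratio of 8.26 (7.30 to 15.09). These muscle genes passed through their dMSN levels, so passing did not leave out every gene known from muscle. Actn2 was at 58.1 and 52.8 CPM in the dMSN libraries, where Ckm, muscle creatine kinase, was at 0.249 and 0.242 CPM. The source of the dMSN transcripts was not tested.

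The falls were led by embryonic globins, made by the first red cells. Hbb-bh1 was at 396 CPM in HP, 0.437 in yCA, 423 in SP, 0.483 in yMSN, and 0 and 0 in the dMSN libraries, a log2 ratio of -9.66 (-10.60 to -9.14). Hbb-y fell from 999 to 2.18 CPM and Hba-x from 555 to 1.36 CPM, whereas Hbb-b1, a globin of later red cells, rose from 1.41 to 207 CPM. Some globins are near-identical copies, and reads that aligned to several places were not assigned, so levels of such copies are uncertain. Beside Lin28a, Dusp9, Trim71, Sall4 and Hmga2 the falls held Alx1, a homeobox gene of the craniofacial mesenchyme. It was at 77.9 CPM in HP, 0.437 in yCA, 27.6 in SP, 19.5 in yMSN, and 0.0582 and 0.0949 in the dMSN libraries. In yCA it was under 1 CPM, while in yMSN it was within 2-fold of SP. Msx2, a target of bone morphogenetic protein signals, fell from 30.3 to 0.231 CPM, and Dmbx1, a homeobox gene of the midbrain and diencephalon, from 14.8 to 0.103 CPM.

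Transcripts of skeletal muscle made the largest rise of any of the 34 lists. All 21 described genes rose, the median over the 25 was 7.41 (the same with Myh1, at 0 counts in HP, at its bound), and 5 of the 21 passed the brain level. The median level of the list in HP was 0.947 CPM, so most members could be described only by rising. The list summed to 40.5 CPM in HP, 8420.4 in yCA, 34.3 in SP, 3109.6 in yMSN, 451 in dMSN 1 and 326 in dMSN 2. No member was at 0 in yCA. The young libraries held it in bulk and the precursor libraries nearly none. Myh8, the perinatal myosin heavy chain, was at 2.01 CPM in HP, 1429.6 in yCA, 2.32 in SP, 332 in yMSN, and 1.71 and 2.13 in the dMSN libraries, a log2 ratio of 9.44 (9.14 to 9.83). Myh3, the embryonic myosin, rose from 2.87 to 996 CPM. Ckm, muscle creatine kinase, was at 0.373 CPM in HP, 391 in yCA, 0.277 in SP, 103 in yMSN, and 0.249 and 0.242 in the dMSN libraries, a log2 ratio of 9.84 (9.26 to 10.94). The myogenic factor genes Myog and Myod1 rose from 0.804 to 71.5 CPM and from 0.603 to 10.5 CPM. Outside the list, Casq2, a calcium store of muscle, rose from 0.316 to 292 CPM, Ldb3, of the Z disc, from 0.316 to 162 CPM, and Atp1b4, a muscle protein related to sodium pump subunits, from 0.201 to 145 CPM. Smpx, a small muscle protein, and Myoz2, a Z disc protein, had 0 counts in HP and were at 42.4 and 35.03 CPM in yCA, at least 492-fold and 407-fold higher against a floor of 3 counts in HP.

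Skin and oral epithelium gave a smaller and uneven rise. Of 16 described genes 10 rose, 3 fell and 3 stayed within 2-fold, and the list summed to 123 CPM in HP, 429 in yCA, 67.2 in SP, 826 in yMSN, 121 in dMSN 1 and 94.05 in dMSN 2. Krt6a, Dsg3 and Sprr1a were at 0 counts in HP and no member was at 0 in yCA. The list median was 3.41, the same with these 3 genes at their bounds. Krt6a, a keratin of stressed and oral epithelium, was at 35.5 CPM in yCA, at least 413-fold higher. Krt5 and Krt14, the keratin pair of basal epithelium, rose from 3.01 to 74.5 CPM and from 2.35 to 33.6 CPM. Krt13, of oral mucosa, had 2 counts in HP and 2210 in yCA, a log2 ratio of 8.99 (8.10 to 13.00), and its partner Krt4 had 2 and 1450, at 8.38 (7.49 to 12.39). The 3 falls were Krt8, from 25.7 to 12.2 CPM, Krt18, from 20.5 to 6.63 CPM, and Epcam, from 28.4 to 5.73 CPM, the genes of simple epithelium. Trp63, the factor of basal epithelium, was at 17.5 CPM in HP and 11.8 CPM in yCA, within 2-fold.

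Thyroid transcripts were few. Tg, thyroglobulin, was at 0.258 CPM in HP, 76.6 in yCA, 0.302 in SP, 0.967 in yMSN, and 0.0665 and 0.233 in the dMSN libraries, a log2 ratio of 7.94 (7.29 to 9.34). Iyd and Dio1 were at 0 counts in HP, and no member was at 0 in yCA. The receptor gene Tshr was at 0.201 CPM in HP and 1.85 CPM in yCA, under the level of description. Of the 3 thyroid transcription factors Nkx2-1, shared with ventral forebrain, was at 26.6 CPM in HP and 22.1 CPM in yCA, Foxe1 at 1.72 CPM in HP and 1.54 CPM in yCA and Pax8 at 1.29 CPM in HP and 0.720 CPM in yCA. The 12 genes summed to 31.00 CPM in HP and 111 CPM in yCA, against 45.4 CPM in SP and 24.4 CPM in yMSN.

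Of 20 bone and cartilage genes 6 were described, and all 6 fell, while the median over the 20, most of them under 5 CPM in both libraries, was 0.12. Col2a1, the collagen of cartilage and of early neuroepithelium, was at 546 CPM in HP, 40.3 in yCA, 451 in SP, 320.3 in yMSN, and 1.25 and 0.837 in the dMSN libraries, and Hapln1, which links hyaluronan to matrix, fell from 62.8 to 2.08 CPM. The list summed to 787 CPM in HP and 103 CPM in yCA, but to 1185 CPM in yMSN. Of the olfactory and airway genes 2 were described and 1, Cyp2f2, an airway cytochrome with 1 count in HP, rose, to 15.2 CPM, a log2 ratio of 7.52 (6.57 to 14.36).

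**Figure D4:**
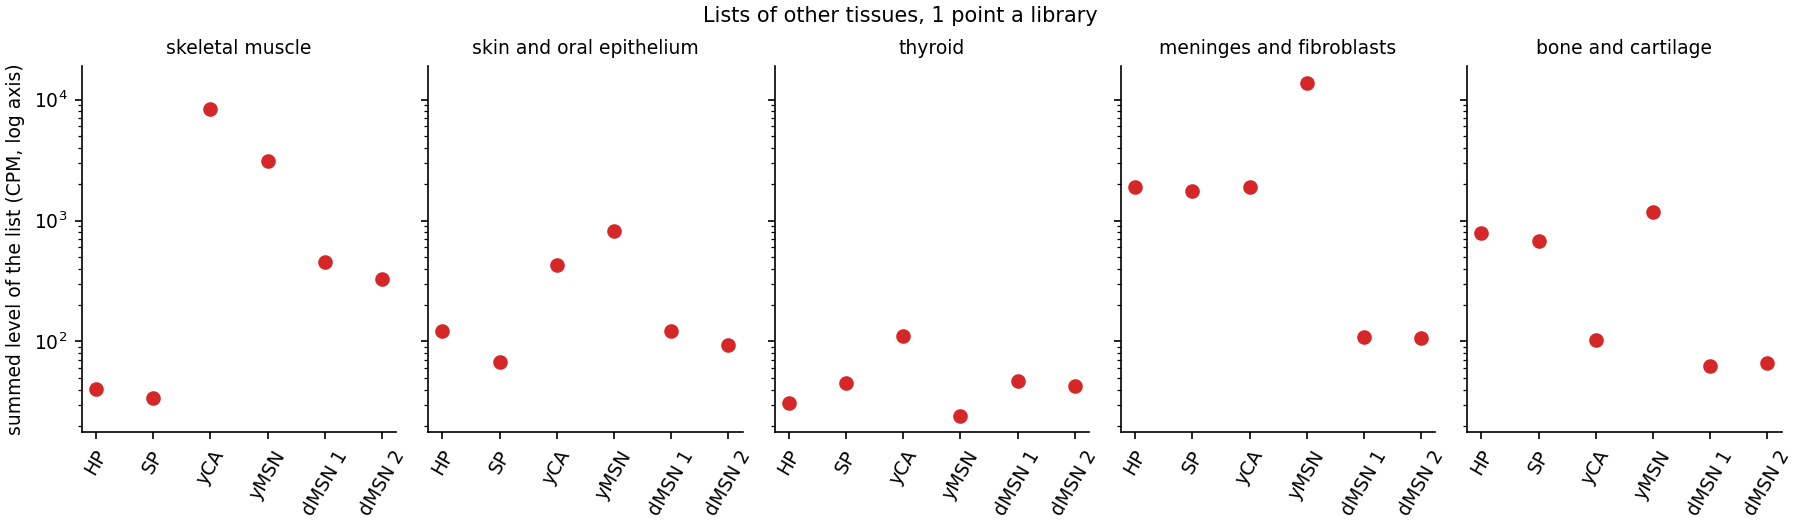
Summed level, in CPM, of the skeletal muscle, skin and oral epithelium, thyroid, meninges and fibroblast, and bone and cartilage lists in each of the 6 libraries, on a log axis. Muscle stands at 40.5 CPM in HP and 8420 CPM in yCA, while the meninges list stands at 1894 and 1906 CPM in this pair and at 13736 CPM in yMSN.

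Of the 493 rises that did not pass the brain level, 27 were in the lists of tissues outside the brain, 16 of muscle, 9 of skin, Tg and Cyp2f2. A further 452 were in no list at all. Those held the muscle genes Casq2, Ldb3, Atp1b4, Smpx and Myoz2 named above, so the list counts do not give every muscle gene. Members of the neuron lists were also among the 493, 6 in number, including Zfpm2, Khdrbs2, Cacna1e, Kcnma1 and Kcnq3. The channel gene Kcnq3, of the slow M current, rose from 0.947 to 22.2 CPM, and Kcnma1, of the large calcium-activated potassium channel, from 0.947 to 21.8 CPM. Failing to pass was therefore not the same as being in a muscle, skin or thyroid list. The source of these transcripts was not tested. Together the 493 genes summed to 1147 CPM in HP, 18008 CPM in yCA and 11022 CPM in yMSN. Of them 194 were under 1 CPM in HP, 406 reached 5 CPM in yMSN, and 4 were under 1 CPM in yMSN. Conversely, 6 genes of the outside lists were among the 2102 rises that passed, namely Acta1, Actn2, Ryr1, Tnni1, Tnnt1 and Krt1. The part of these tissues in the rises of neuronal genes was not tested. Falls that did not pass could not reach 10 CPM in HP, and so none was large enough in level to be ranked.

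Other cell types of the dissected tissue differed in direction. Of 8 described astrocyte genes 6 rose and 1 fell: Aldoc, a glycolytic enzyme, rose from 1.92 to 68.7 CPM, and Gja1, a gap junction protein shared with radial glia, fell from 251 to 60.9 CPM. The defining astrocyte genes Gfap and Aqp4, chosen after their values were seen, were at 0.258 CPM in HP and 2.18 CPM in yCA and at 1.95 CPM in HP and 4.01 CPM in yCA. Of 9 described erythroid genes 6 fell and 1 rose, and the list summed to 2091 CPM in HP and 288 CPM in yCA. None of 7 described microglial genes rose, 6 stayed within 2-fold and 1 fell, and the list median was 0.28. The fall was Tmem119, a gene of microglia and of bone, at a log2 ratio of -1.93. The microglial list summed to 101 CPM in HP and 91.9 CPM in yCA. Of 12 endothelial and pericyte genes 4 rose and 1 fell, led by the pericyte gene Rgs5, from 2.78 to 111 CPM. The meninges and fibroblast list had 3 rises and 4 falls: Twist1 and Foxc1, transcription factors of mesenchyme, fell from 103 to 5.73 CPM and from 52.7 to 5.73 CPM, while Col1a1, a fibrillar collagen, rose from 204 to 506 CPM. Of genes of other brain regions, En2, a midbrain and hindbrain factor, fell from 17.8 to 0.437 CPM, and Irx3, a factor of diencephalon and more caudal regions, from 42.5 to 1.70 CPM. The part of each of these cell types in the results above was not tested.

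The striatal pair, SP and yMSN, shared no library with the hippocampal pair and gave the values set beside it here. Of 12931 genes described in that pair 2687 (20.8%) rose and 1231 (9.52%) fell. List medians of yCA over HP and of yMSN over SP were -2.24 and -1.77 for DNA replication, -2.18 and -1.80 for mitosis, and -1.24 and -1.25 for radial glia. They were 3.20 and 2.20 for presynaptic genes, 2.93 and 1.59 for pallial transcription factors, and 2.68 and 0.98 for the young cytoskeleton. The 3 precursor medians were negative in both pairs, and these 3 neuronal ones were positive in both and larger in the hippocampal pair. Of the lists of neuronal genes, only 2 had the larger median in the striatal pair. They were hippocampal field markers, at 1.13 and 1.34, and GABA synthesis and interneuron genes, at 1.81 and 2.17. Every other such list was larger in the hippocampal pair, striatal projection neuron genes included, at 1.74 and 1.21. With 1 library a group these differences between the pairs were not tested.

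**Figure D5:**
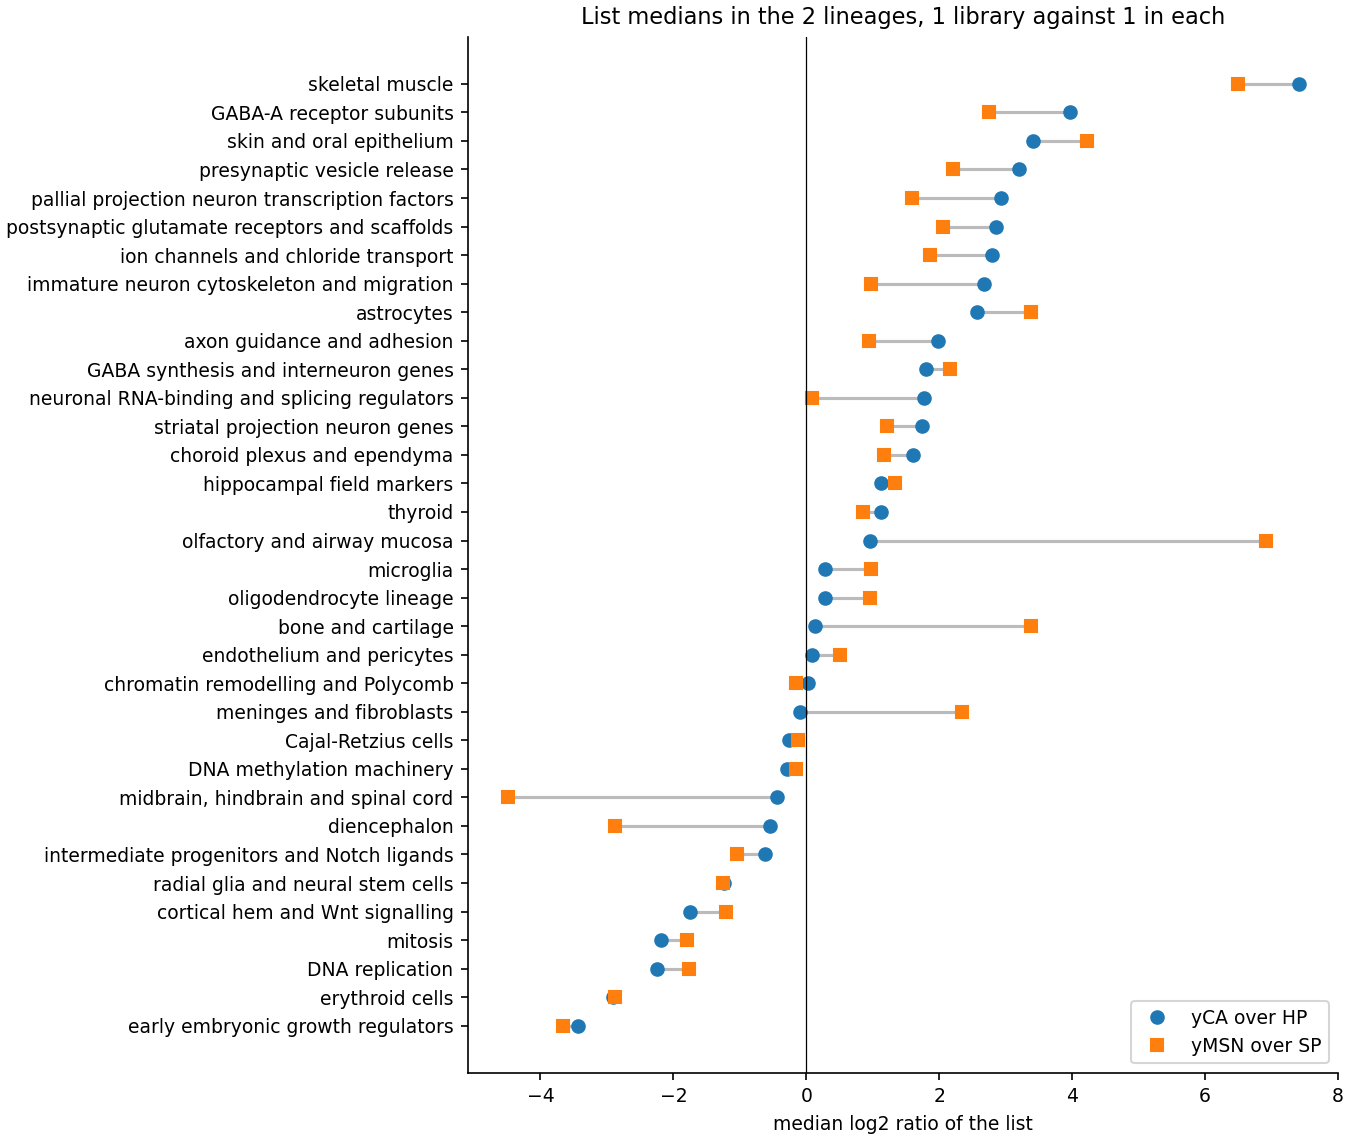
Median log2 ratio of each of the 34 gene lists, for yCA over HP (circles) and yMSN over SP (squares), over all members with a row. The mitosis circle is at -2.18 and its square at -1.80, the pallial transcription factor circle at 2.93 and its square at 1.59, and the meninges circle at -0.095 and its square at 2.34.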

How the data were processed

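PolyA RNA of 6 microdissected brain libraries was measured; 14 bisulfite samples were left aside. Each library came with a deposited table of unnormalized counts by gene symbol, whose HTSeq summary lines were kept out of totals. Per the submitters' processing notes TopHat, TopHat2 2.0.2, Bowtie 1.0.0, HTSeq, edgeR, Bismark and methylKit were used, with builds NCBIM37 and mm9, and no role is given to each. Whether counting used strand is not stated, so reads of overlapping or antisense genes cannot be told apart. In HP and yCA 5.34% and 6.81% of tallied reads fell in no gene, 1.39% and 1.43% were ambiguous, and 27.3% and 22.4% aligned to several places. This leaves close copies, as among globins, tubulins and keratins, uncertain.

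Counts were scaled by TMM in edgeR 4.0.16 (R 4.3.3), over 19192 genes kept by filterByExpr, with factors of 1.11 in HP and 1.10 in yCA. The 3-count floor was 0.0861 CPM in HP and 0.0771 CPM in yCA. Log2 ratios add a prior count of 2, and their 95% intervals are exact (Clopper-Pearson, scipy 1.17.1, Python 3.11.15) and, like the floors, cover counting error only. The intervals use the counts without that prior. At low counts a ratio is therefore drawn towards no change and its interval is not. The ratio, the 2-fold call and the interval were tested on simulated counts that held counting error only. The simulation did not test the scaling, the brain level or the lists. List medians run over members with a row, under 5 CPM included.

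The 34 gene lists (620 symbols written, 618 with a row, 4 of them under an older name; Sox1 and Ahsp unmatched), the comparison and the members were chosen with earlier results of these data known. Genes were named as the 12 largest rises and 12 largest falls past the brain level, the 12 largest rises and 6 largest falls not past it, among genes at 10 CPM in the higher library and ranked by the nearer interval bound, and up to 6 members of each list by size. Symbols of predicted genes, clones and pseudogenes were passed over, and the methylation, outside-brain and marker genes could be named in full. A few genes the rule allows are not reported here. Alternatives were other scalings, prior counts, level minimums and brain levels, and leaving out each dMSN library.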

Additional observations from a re-analysis of the deposited data

Results flagged for a closer look

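Some genes moved at least 2-fold in opposite directions in the hippocampal pair (yCA over HP) and the striatal pair (yMSN over SP). Each pair is 1 library against 1, and the differences were not tested. Prox1, a homeobox factor of dentate granule cells, rose in the hippocampal pair, with a log2 ratio of 1.72, and fell in the striatal pair, at -1.75. It was at 18.8 CPM in HP, 62.3 in yCA, 40.5 in SP, 12.04 in yMSN, and 19.7 and 10.9 in the dMSN libraries. The other genes fell in the hippocampal pair and rose in the striatal one. Those of simple epithelium were Epcam (-2.30 and 2.27), Krt8 (-1.07 and 2.58) and Krt18 (-1.62 and 2.54). Those of bone and matrix were Runx2 (-1.73 and 4.14), Alpl (-1.54 and 1.64), Col11a1 (-1.26 and 1.21) and Lum (-1.08 and 1.25). The rest were Sox10, a factor of oligodendrocytes and neural crest (-1.67 and 2.07), and Tmem119, a gene of microglia and of bone (-1.93 and 1.39). As a whole, the meninges and fibroblast list had a median of -0.095 in the hippocampal pair and 2.34 in the striatal pair, with summed levels of 1894 CPM in HP, 1906 in yCA, 1743 in SP and 13736 in yMSN.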

How the results depend on the processing

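Counts of rises and falls moved most with the level a gene had to reach. With no minimum 5015 genes rose and 3305 fell, against 2595 and 1763 at 5 CPM. With the brain level set at 5 CPM, 317 rises and 0 falls did not pass, the 0 by construction, and with it at 20 CPM the counts were 750 and 397, against 493 and 175 at 10 CPM. Without either dMSN library in turn, rises that passed numbered 2112 to 2134 and falls 1591 to 1595, and those that did not pass 461 to 483 and 168 to 172. With relative log expression scaling 2427 genes rose and 2066 fell, 54.0% of calls being rises against 59.5%, and the median of all genes went from -0.07 to -0.17. Under the scalings tried 7 genes of the lists crossed 2-fold (Dcc, Epha4, Fezf2, Mfng, Robo1, Shank3 and Vim) and 5 near no change took the other sign (Adamts12, Flt1, Hdac2, Mbp and Pecam1). Over 6 settings a list, 203 of 204 list medians moved by less than the spread between the dMSN libraries (an SD of 0.31 on the log2 scale). The exception was astrocytes, at 2.89 with a prior count of 0.5 against 2.57. This count says little, because a change of scaling shifts every ratio by nearly the same amount. The SD is also of single genes between more deeply sequenced libraries. Every setting but that prior count changed the scaling alone. Of 2690 values of single genes 18 moved, all with that prior count, and of those past 2-fold 0 took the other sign. Of the alternatives chosen after seeing the data, scaling over all symbols gave 2657 rises and 1699 falls, and leaving out the outside-brain lists 2562 and 1754. No paired analysis was possible because each of HP and yCA is 1 library. Depth limits values near 0.0861 CPM in HP and 0.0771 CPM in yCA, and with 1 library a group the spread between animals or dissections is unknown.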

Other observations

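Choroid plexus and oligodendrocyte genes were uneven between HP and yCA. Of 7 described choroid plexus and ependymal genes 3 rose, 1 fell and 3 stayed within 2-fold. Aqp1, a water channel of choroid plexus, rose from 2.93 to 23.6 CPM, and Kcne2, a potassium channel subunit there, had 2 counts in HP and 244 in yCA, a log2 ratio of 5.82 (4.90 to 9.82). Otx2, a factor of choroid plexus and of the anterior neural plate, fell from 103 to 9.79 CPM. Of 10 described oligodendrocyte lineage genes 4 rose, 2 fell and 4 stayed within 2-fold, with a median of 0.28 over the list. The progenitor genes Olig1 and Cspg4 rose from 4.19 to 25.4 CPM and from 4.54 to 34.96 CPM. The lineage factor gene Sox10 fell, at a log2 ratio of -1.67, and Pdgfra, shared with fibroblasts, fell from 155 to 70.96 CPM. Myelin gene Mog rose from 0.660 to 6.22 CPM, with 180.1 and 140.3 CPM in the dMSN libraries.

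Patterning genes of other brain regions fell more often than they rose. In the midbrain, hindbrain and spinal cord list 4 of 5 described genes fell, among them Fgf8, the isthmic organiser signal, from 12.1 to 0.283 CPM, and Pax2 from 5.94 to 0.180 CPM. The exception was Gbx2, a factor of hindbrain and thalamus, which rose from 0.603 to 5.27 CPM. In the diencephalon list 4 of 9 fell and 1, again Gbx2, rose. Dbx1, a homeobox factor of neuroepithelial domains, fell from 25.4 to 1.59 CPM.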
